A study of Mus musculus with 18 samples.

Results

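The Hoxd cluster is a row of 9 homeobox genes on mouse chromosome 2, flanked on each side by a gene desert. In genome build mm10 it runs from 74668225 to 74765142, from Hoxd13 at the lower end to Hoxd1 at the upper end. The members described here were chosen by position alone. They are all deposited binding summits of Pitx1 and Tbx5 inside the cluster or within 1 Mb of its ends. Of 54941 Pitx1 summits in the series 206 met the rule, and of 10273 Tbx5 summits 59 did. The 1 Mb beyond Hoxd13 is called the Hoxd13 side and the 1 Mb beyond Hoxd1 the Hoxd1 side.

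Both maps come from chromatin immunoprecipitation followed by sequencing (ChIP-seq), which recovers the DNA a protein is crosslinked to. Pitx1 was mapped in hindlimb buds at e11.5 with the homemade antibody 960A, and Tbx5 in forelimb buds at e10.5 with the homemade antibody NP1723. All embryos were wild type and of CD1, an outbred strain. Each map is 1 sample of whole buds, so replicate error could not be measured, and factor, limb, stage and antibody cannot be told apart. In whole buds, a site bound in few cells and a site bound weakly in many cannot be told apart either. The authors' score of a summit was taken as the −log10 q that MACS2 writes, although no header says so. It is a measure of how surely a peak was called and not of occupancy. Where a site is called the strongest below, this means the highest score only. The median score was 7.07 over the Pitx1 list and 8.29 over the Tbx5 list. The labels and files give no read depth, and the level of scores was not compared between the lists. Only a rank correlation of the scores of shared pairs is given, at the end.

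Hox genes encode homeodomain transcription factors that give cells their position along the body and along the limb. In mouse limb buds the Hoxd genes are switched on by enhancers in the deserts. Those beyond Hoxd1 act early and in the proximal limb, and those beyond Hoxd13 act later, in the future digits. Pitx1 is a homeodomain factor of the hindlimb, and Tbx5 is a T-box factor needed for the forelimb to grow out.

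The start sites of Hoxd11, Hoxd10 and Hoxd8 were the only Hoxd start sites with a summit inside the RefSeq promoter window. Their promoters (GRCm38.p6, the assembly that mm10 represents, plus strand) are shown from 250 bases before the start site through the first 30 bases from it. Capitals mark the summit and up to 10 bases on each side. The Hoxd11 stretch (chr2:74679308-74679587) holds a Tbx5 summit 21 bp past the start site. The Hoxd10 stretch (chr2:74691641-74691920) holds a Pitx1 summit 24 bp before it, and the Hoxd8 stretch (chr2:74704365-74704644) a Pitx1 summit 113 bp before it.
Hoxd11: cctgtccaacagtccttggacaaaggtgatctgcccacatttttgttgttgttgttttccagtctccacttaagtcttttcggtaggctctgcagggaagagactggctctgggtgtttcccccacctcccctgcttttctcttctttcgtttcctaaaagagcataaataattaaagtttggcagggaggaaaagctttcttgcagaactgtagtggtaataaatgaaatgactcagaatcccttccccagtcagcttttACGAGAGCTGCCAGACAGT
Hoxd10: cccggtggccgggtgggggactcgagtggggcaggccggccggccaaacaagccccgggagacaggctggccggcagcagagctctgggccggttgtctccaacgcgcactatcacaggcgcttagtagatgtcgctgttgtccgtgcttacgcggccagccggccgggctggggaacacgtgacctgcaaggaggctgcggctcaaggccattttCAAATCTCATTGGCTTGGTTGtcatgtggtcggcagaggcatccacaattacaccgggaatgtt
Hoxd8: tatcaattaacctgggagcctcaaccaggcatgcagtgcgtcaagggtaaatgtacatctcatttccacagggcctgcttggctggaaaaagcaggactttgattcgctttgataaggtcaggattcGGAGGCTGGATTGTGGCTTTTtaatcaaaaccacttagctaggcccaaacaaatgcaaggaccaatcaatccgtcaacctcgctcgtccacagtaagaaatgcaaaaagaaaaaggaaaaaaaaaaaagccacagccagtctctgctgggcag
These stretches were searched on both strands for TAATCC, a word of bicoid-type homeodomain factors such as Pitx1, and for GGTGTG, the core of the T-box motif. The words do not overlap each other. Neither was found in the 3 stretches. Over the 10 promoters listed for the 9 Hoxd genes, TAATCC was found in 0 and GGTGTG in 1, that of Hoxd9. In the RefSeq table of 32851 promoters cut in the same way, 6.77% held TAATCC and 17.9% held GGTGTG.

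Pitx1 summits crowded the cluster itself. The cluster held 41 Pitx1 summits in 96.9 kb, or 42.3 per 100 kb, against 2.03 per 100 kb over the whole list, a density 20.8 times higher. Of the 27880 stretches of this length that tile the genome, 0.0108% held as many. Tbx5 had 6 summits in the cluster, or 6.19 per 100 kb against 0.38 over its list, 16.3 times higher, and 0.179% of stretches held as many. The Pitx1 summits of the cluster were a median of 1580 bp apart, against 16700 bp over the list.

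Both flanks were also dense. In the full list, Pitx1 summits were about equal in number on each side, and Tbx5 summits were more numerous on the Hoxd1 side. The Hoxd13 side held 83 Pitx1 summits and the Hoxd1 side 82. Of the 2691 stretches of 1 Mb that tile the genome, 0.52% held as many as either, and the densities were 4.08 and 4.03 times that of the list. The Hoxd13 side held 16 Tbx5 summits, a number that 1.97% of stretches reached, and the Hoxd1 side 37, a number that 0.0743% reached. Their densities were 4.21 times that of the list on the Hoxd13 side and 9.74 times on the Hoxd1 side. Of the summits in the flanks, the Hoxd13 side thus held 50.3% for Pitx1 (exact 95% interval 42.4 to 58.2, n = 165) and 30.2% for Tbx5 (18.3 to 44.3, n = 53). The intervals overlap each other, and neither the difference between the factors nor a departure from an even split was tested. With flanks of 500 kb the Hoxd13 shares were 57.6% for Pitx1 (n = 92) and 39.3% for Tbx5 (n = 28), given without intervals. All intervals given here cover counting error only. They treat neighbouring summits of 1 sample as independent, which they may not be. Among Pitx1 summits at or above the list's median score the numbers stayed nearly even, 46 and 44, a Hoxd13 share of 51.1%. They were less even in the shorter lists that follow. The second deposited list held 22 on the Hoxd13 side and 36 on the Hoxd1 side, a Hoxd13 share of 37.9%. The full list cut by score to the length of the Tbx5 list held 17 on the Hoxd13 side and 25 on the Hoxd1 side, a share of 40.5%, and Pitx1 density on the Hoxd1 side was then 6.58 times that of the list.

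There were 5.19 Pitx1 summits per Tbx5 summit on the Hoxd13 side, 6.83 in the cluster and 2.22 on the Hoxd1 side, beside 5.35 over the whole lists.

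**Figure D1:**
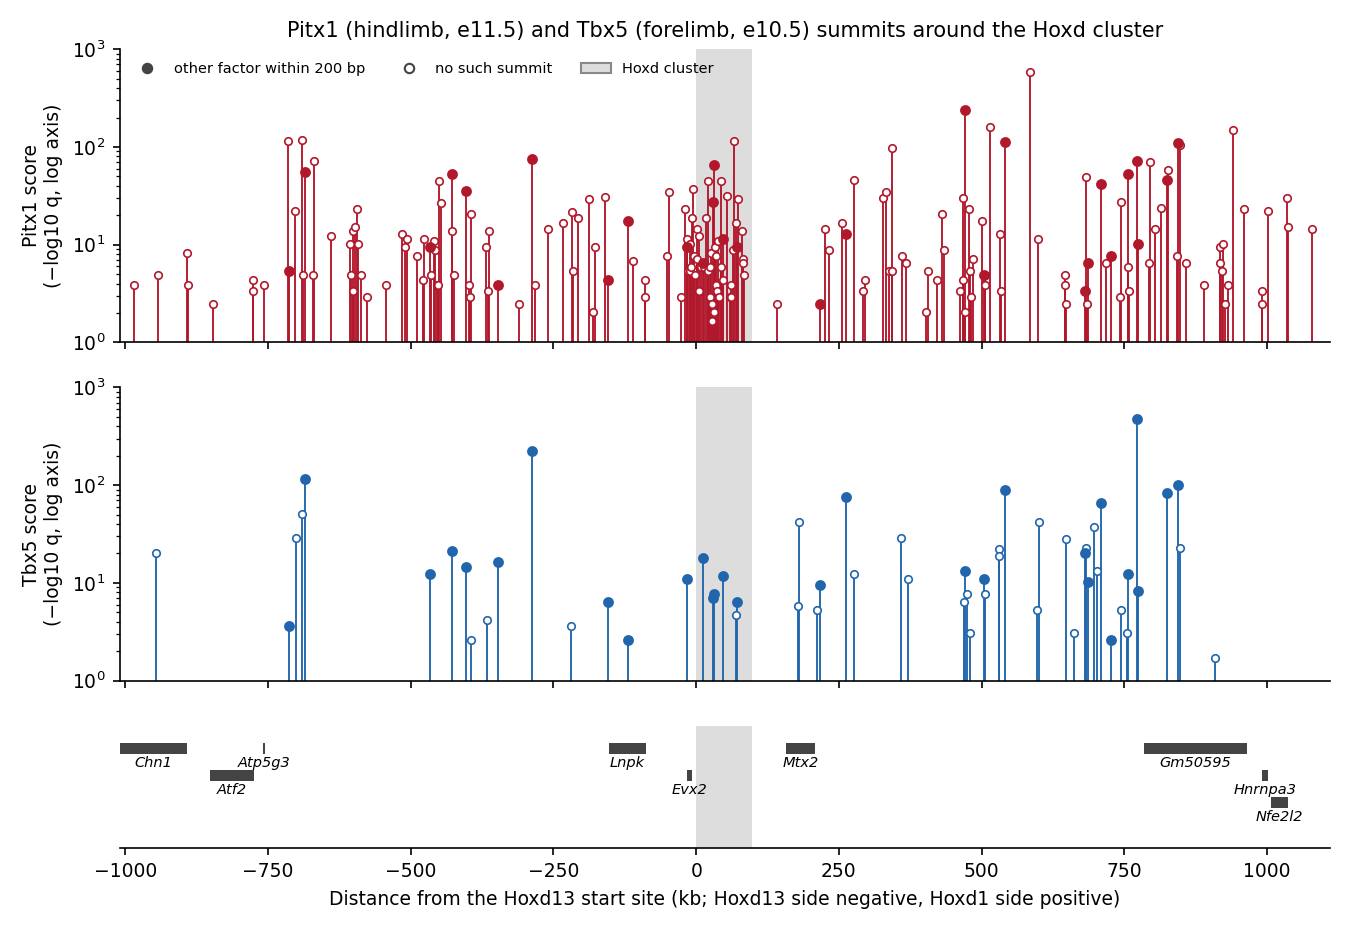
Scores (−log10 q, log axis) of the 206 Pitx1 summits (upper panel) and 59 Tbx5 summits (middle panel) against the distance from the Hoxd13 start site in kb, with protein-coding genes below (Hoxd genes not drawn). Filled points have a summit of the other factor within 200 bp, and grey marks the cluster. The highest Pitx1 score, 581, and the highest Tbx5 score, 475, both lie on the Hoxd1 side, and the cluster reaches 114 for Pitx1 and 17.8 for Tbx5.

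The flanks were also compared by their high-scoring sites. Of the Pitx1 summits in the flanks, 24 belonged to the highest 10% of scores in the list, 8 on the Hoxd13 side and 16 on the Hoxd1 side. The Hoxd13 share was 33.3% (exact 95% interval 15.6 to 55.3), an interval that still includes an even split. Within each zone, 9.64% of Pitx1 summits on the Hoxd13 side, 9.76% in the cluster and 19.5% on the Hoxd1 side were this high, beside 9.87% of the list with ties. For Tbx5 the highest 10% held 3 summits of the Hoxd13 side, 0 of the cluster and 6 of the Hoxd1 side, 15.3% of the 59 beside 10.1% of the list. Above the median score of the list lay 52.4% of the 206 Pitx1 summits, beside 47.4% of the whole list, and 61% of the 59 Tbx5 summits, beside 48.5%. Median Pitx1 scores were 8.9 on the Hoxd13 side, 7.07 in the cluster and 7.67 on the Hoxd1 side. Median Tbx5 scores were 13.6 on the Hoxd13 side, 7.33 in the cluster and 12.4 on the Hoxd1 side.

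Within the flanks the summits lay mostly in the deserts. The desert between Atp5g3, a subunit gene of mitochondrial ATP synthase, and Lnpk, a gene for a shaper of the endoplasmic reticulum, held 57 Pitx1 and 13 Tbx5 summits in 602 kb. The desert between Mtx2, a gene of mitochondrial protein import, and Hnrnpa3, which encodes an RNA-binding protein, held 76 Pitx1 and 35 Tbx5 summits in 782 kb. That is 9.46 Pitx1 and 2.16 Tbx5 summits per 100 kb in the desert on the Hoxd13 side, and 9.71 and 4.47 in the desert on the Hoxd1 side. Pitx1 density was therefore nearly equal in the deserts, while Tbx5 density was higher in the one beyond Hoxd1. The desert beyond Mtx2 includes Gm50595, a predicted protein-coding gene from 75451974 to 75633917 that held 19 Pitx1 and 4 Tbx5 summits.

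The outer genes and Mtx2 carried fewer Pitx1 sites per length than the deserts. The 244 kb with Atp5g3, Atf2, a transcription factor gene, and the inner part of Chn1, a gene for a regulator of Rac signalling, held 8 Pitx1 summits with a median score of 3.83 and 1 Tbx5 summit. The 106 kb from Hnrnpa3 through Nfe2l2, the master regulator of the oxidative stress response, to the outer end held 5 Pitx1 summits and no listed Tbx5 summit. The 112 kb from the end of the cluster through Mtx2 held 1 Pitx1 summit, with a score of 2.45. Mtx2 itself had no Pitx1 summit inside it or within 1 kb of its ends. It held 2 Tbx5 summits, with scores of 5.81 and 41.6, and the summit with the higher score, at 74847605, was 37 kb from any Pitx1 summit. The longest stretch of the locus without a Pitx1 summit, 74.2 kb from 74810329 to 74884578, covers Mtx2 and holds 4 Tbx5 summits.

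The Hoxd13 edge of the cluster had no such gap. The 153 kb with Lnpk, Evx2 and the sequence up to Hoxd13 held 18 Pitx1 and 2 Tbx5 summits. Evx2, a homeobox gene expressed with Hoxd13 in the distal limb bud, spans 8.53 kb and held 5 Pitx1 summits with scores up to 18.9 and no Tbx5 summit. A Pitx1 summit with a score of 37.3 lay at 74661837, between Evx2 and Hoxd13, and was not in the second deposited Pitx1 list. In the last 100 kb before the cluster there were 16 Pitx1 summits on the Hoxd13 side, against 1 in the first 100 kb on the Hoxd1 side. Tbx5 had 1 summit in that bin on the Hoxd13 side and 2 on the Hoxd1 side.

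**Figure D2:**
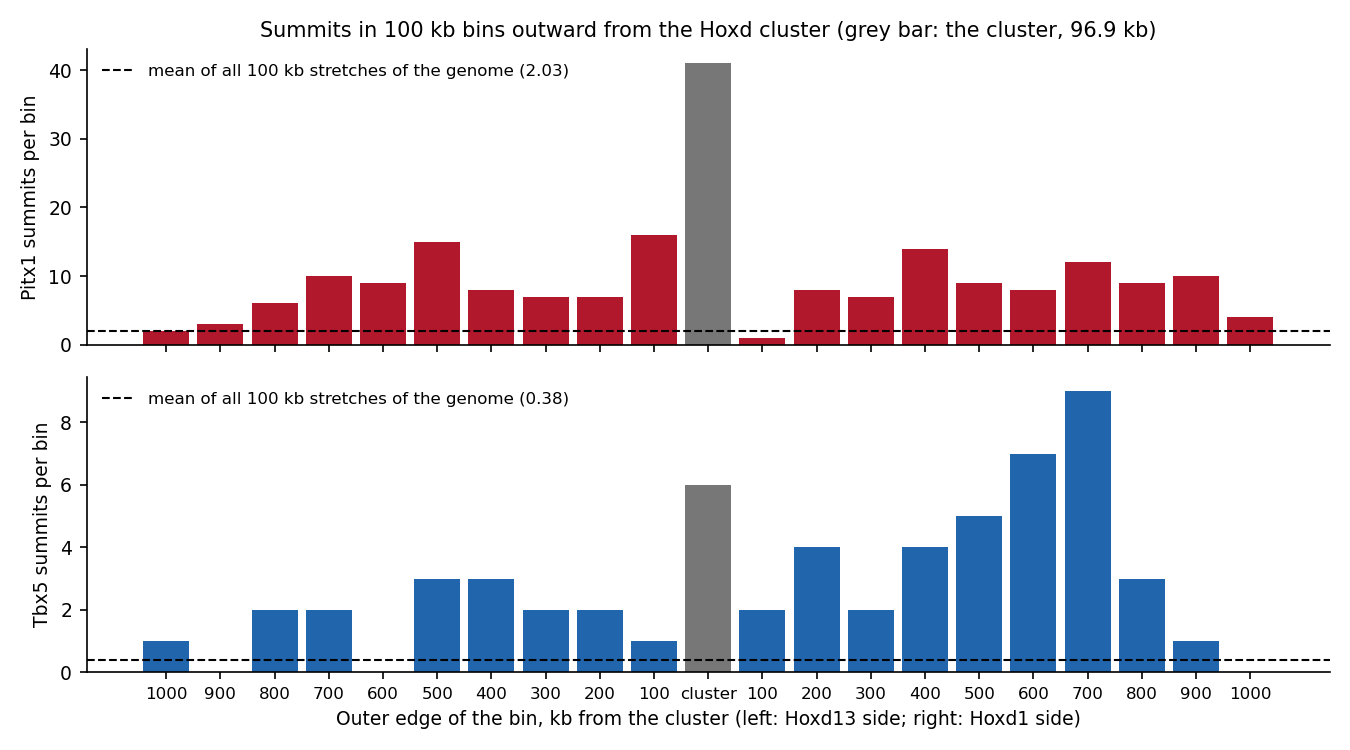
Number of Pitx1 summits (upper panel) and Tbx5 summits (lower panel) in 100 kb bins outward from the cluster, labelled by the outer edge of the bin in kb. The grey bar is the cluster, and the dashed line is the mean of all 100 kb stretches of the genome, 2.03 for Pitx1 and 0.38 for Tbx5. Pitx1 falls to 1 summit in the first bin on the Hoxd1 side, and Tbx5 reaches 9 summits between 600 and 700 kb on that side.

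The densest 100 kb of each flank was also located. These stretches were picked for their counts, so their counts are high by selection and are no measure of crowding. On the Hoxd13 side, the densest 100 kb for Pitx1 ran from 74178222 to 74278221, with 18 Pitx1 and 4 Tbx5 summits and a highest Pitx1 score of 53.4. That of the Hoxd1 side, from 75090748 to 75190747, held nearly as many, 17 Pitx1 and 6 Tbx5 summits, with a highest Pitx1 score of 240. For Tbx5, the densest 100 kb of the Hoxd13 side ran from 74201743 to 74301742, with 5 Tbx5 and 15 Pitx1 summits. On the Hoxd1 side, the densest 100 kb for Tbx5 ran from 75349189 to 75449188, with 12 Tbx5 and 14 Pitx1 summits, and 7 of the 12 were shared. In bins set from the cluster end, 9 Tbx5 summits fell between 600 and 700 kb. The highest number in any of the 27018 fixed 100 kb stretches of the genome was 10 for Tbx5 and 53 for Pitx1. Fixed stretches are not picked for their counts, so the densest stretches above cannot be set directly against them.

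Inside the cluster Pitx1 summits were found from Hoxd13 to the sequence past Hoxd3, and none was listed at Hoxd1. With the cluster divided at the start sites, the stretch beginning at Hoxd13, which patterns the digits, held 4 Pitx1 summits with a highest score of 14.4. The stretch of Hoxd12 held 1, with a score of 5.92. The stretch of Hoxd11, which acts in the forearm and lower leg, held 6 with a highest score of 45.2. The stretches of Hoxd10 and Hoxd9, genes active in the upper limb segment and in hindlimb motor neurons, held 5 and 6 with highest scores of 27.3 and 65.2. Those of Hoxd8 and Hoxd3 held 3 each, with highest scores of 45.2 and 11.54. The long stretch from the start of Hoxd4 to that of Hoxd1, 41 kb, held 13, with a highest score of 114. No gene of the cluster from Hoxd13 to Hoxd4 was without a Pitx1 summit in its stretch. A stretch ends at the next start site, so its highest score can lie at the next gene. The 45.2 of the Hoxd11 stretch lay inside the RefSeq record of Hoxd10 but before its listed start site. The 27.3 of the Hoxd10 stretch lay 385 bp before the Hoxd9 start site, and the 45.2 of the Hoxd8 stretch 268 bp before that of Hoxd3. The cluster's Pitx1 scores were spread much like those of the whole list, with a median of 7.07 in both.

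The RefSeq records overlap here. That of Hoxd3 (74711993 to 74748271) encloses Hoxd4 (74721978 to 74729160), and those of Hoxd11 and Hoxd10 overlap, so a summit can lie inside more than 1 gene. The strongest Pitx1 site of the cluster, with a score of 114 and rank 980 of the list, lay at 74734753, inside the Hoxd3 record and past the end of Hoxd4. The next, with a score of 65.2, lay at 74699059 inside Hoxd9. Scores of 45.2 were found at 74689435 and at 74711725. The first lies inside the Hoxd10 record but before its listed start site, 74691891. The other is 268 bp before the Hoxd3 start site. A score of 31.7 was found at 74722036, 58 bp past the Hoxd4 start site. All 5 were in the second deposited Pitx1 list.

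At the start sites, 7 of the 9 Hoxd genes had a Pitx1 summit within 1 kb, beside 32.9% of the 17491 protein-coding genes with a listed start site. Pitx1 summits were a median of 1580 bp apart in the cluster, and the part of this density in the 7 of 9 was not tested. Distances were 24 bp for Hoxd10, 58 bp for Hoxd4, 94 bp for Hoxd11, 113 bp for Hoxd8, 268 bp for Hoxd3, 385 bp for Hoxd9 and 946 bp for Hoxd13. Hoxd12 lay just outside, at 1067 bp. Hoxd1, which in the mouse acts in sensory neurons of the pain pathway, was 10.3 kb from the nearest Pitx1 summit. Tbx5 had a summit within 1 kb of 2 of the 9 start sites, those of Hoxd11 and Hoxd9, beside 3.6% of genes. These were 21 bp and 388 bp away. The other 7 start sites were between 2.59 kb (Hoxd3) and 23.1 kb (Hoxd1) from a Tbx5 summit.

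Of the 6 Tbx5 summits of the cluster, 2 scored above the list median of 8.29. Listed from Hoxd13 to Hoxd1, they lay at 74679579 (score 17.8), 74697375 (7.02), 74698941 (7.64), 74714587 (11.7), 74738758 (4.67) and 74739873 (6.4). The first is at the start of Hoxd11, the next pair at and inside Hoxd9, and the last 3 inside the Hoxd3 record. No Tbx5 summit was listed inside Hoxd13, Hoxd12, Hoxd10, Hoxd8, Hoxd4 or Hoxd1.

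**Figure D3:**
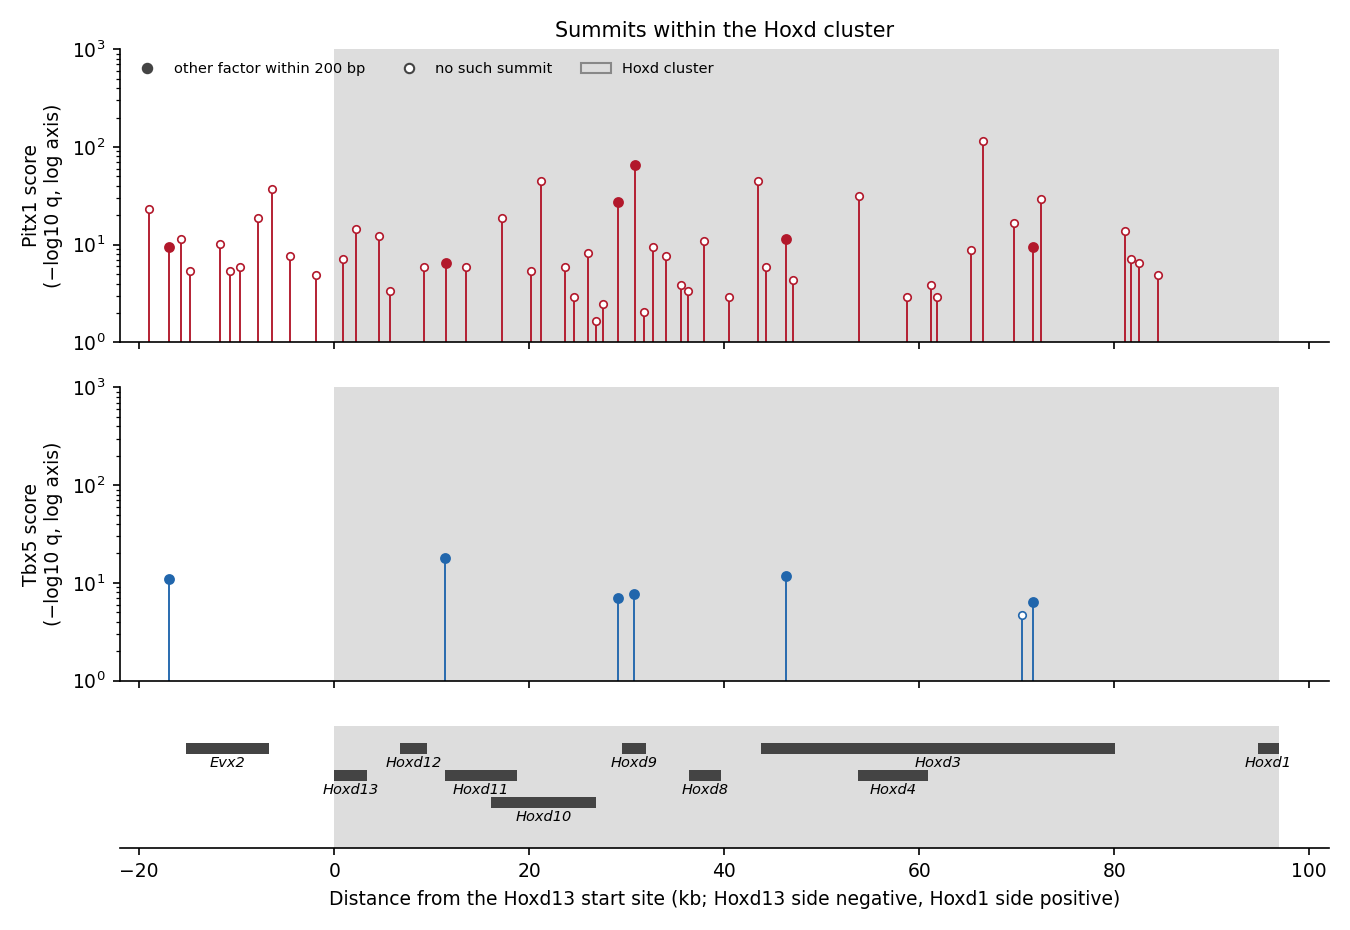
Scores (−log10 q, log axis) of Pitx1 (upper panel) and Tbx5 (middle panel) summits in the cluster and the adjacent Evx2 gene against the distance from the Hoxd13 start site in kb, with RefSeq gene spans below. Filled points have a summit of the other factor within 200 bp. The 41 Pitx1 summits reach from Hoxd13 to past Hoxd3 with a highest score of 114, and 5 of the 6 Tbx5 summits are filled.

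Sites of both factors were compared by the distance between summits, and those at most 200 bp apart were called shared. Of the 59 Tbx5 summits 29 were shared, or 49.2% (exact 95% interval 35.9 to 62.5), beside 39.5% of the whole Tbx5 list. The same 29 pairs make up 14.1% of the 206 Pitx1 summits (9.64 to 19.6), beside 7.39% of the whole Pitx1 list. Shared Tbx5 summits numbered 10 of 16 on the Hoxd13 side (62.5%, 35.4 to 84.8), 5 of 6 in the cluster (83.3%, 35.9 to 99.6) and 14 of 37 on the Hoxd1 side (37.8%, 22.5 to 55.2). These intervals overlap each other, and each includes the 39.5% of the whole list. To set this against the scores, the shared share of each of 5 score classes of the whole Tbx5 list was applied to the members' scores. This gave 6.7 on the Hoxd13 side, 2.23 in the cluster and 16 on the Hoxd1 side, 24.9 in all, beside the 29 found.

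The distance limit bore on the Hoxd1 side. There, 6 Tbx5 summits lay just outside it, between 201 and 218 bp from a Pitx1 summit, and none of the Hoxd13 side or the cluster lay between 200 and 250 bp. The closest summits inside the limit, over all zones, lay at 133, 122, 120, 118 and 115 bp. With a limit of 250 bp, chosen after these values were seen, 54.1% of the Tbx5 summits on the Hoxd1 side and 59.3% in the locus were shared, beside 42.2% of the whole list. The Hoxd1 side was thus below the whole list at 200 bp and above it at 250 bp.

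**Figure D4:**
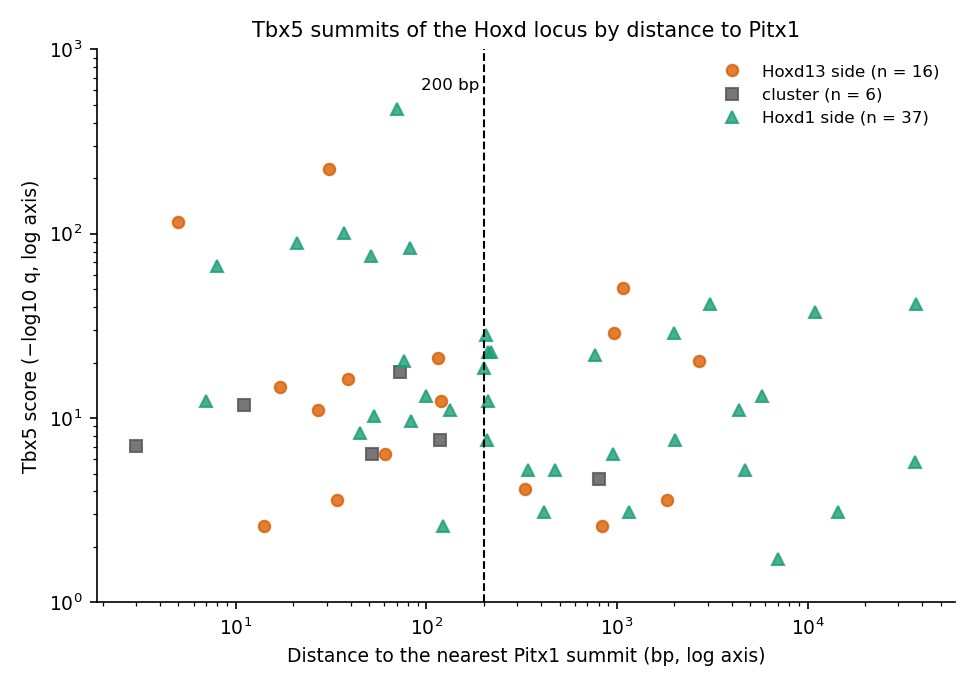
Score (−log10 q, log axis) of each of the 59 Tbx5 summits of the locus against its distance to the nearest Pitx1 summit (bp, log axis), by zone. The dashed line is the 200 bp limit. The 8 highest scores lie left of the line, and 6 summits of the Hoxd1 side stand just right of it.

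The strongest Tbx5 sites of both deserts were shared. On the Hoxd1 side, the Tbx5 summit at 75440056, inside the long non-coding RNA gene 9430019J16Rik and 675 kb from the cluster, scored 475 and ranked 12 in its list. A Pitx1 summit with a score of 71.9 lay 70 bp away. On the Hoxd13 side, the Tbx5 summit at 74381082, 287 kb from the cluster and 134 kb from Lnpk, scored 226 and ranked 84. Its Pitx1 partner, 31 bp away, scored 75.3. The next on that side, at 73983317, scored 116 for Tbx5, and 5 bp away Pitx1 scored 55.5. These 3 sites lay far from any Hoxd gene. The following Tbx5 scores of the Hoxd13 side, 51 at 73977194 and 29.1 at 73966847, were at sites that were not shared. Their nearest Pitx1 summits lay 1.07 kb and 969 bp away.

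Other shared sites with high Tbx5 scores lay on the Hoxd1 side. At 75209267 Tbx5 scored 88.7 and Pitx1, 21 bp away, 113. At 75513071, inside Gm50595, Tbx5 scored 101 and Pitx1, 37 bp away, 109. At 75492341 Tbx5 scored 83.9 and at 75376897 it scored 66.4, with Pitx1 scores of 46.2 and 42.2 within 82 and 8 bp. The Tbx5 summit at 74930867, 166 kb from the cluster, scored 75.6 beside a Pitx1 score of 12.9. Each of these was among the 5 highest Tbx5 scores of the Hoxd1 side except the one at 75376897, the sixth.

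The other shared sites of the Hoxd1 side had lower Tbx5 scores. The Pitx1 summit at 75138570, with a score of 240 and rank 195, lay 100 bp from a Tbx5 summit with a score of 13.2. The Tbx5 summit at 75424099 scored 12.4 beside 52.3 for Pitx1, and that at 75349189 scored 20.3 beside 3.35. The remaining 5 shared sites of the Hoxd1 side, at 74884495, 75172037, 75354615, 75395280 and 75442883, had Tbx5 scores between 2.61 and 11 and Pitx1 scores between 2.45 and 10.2.

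On the Hoxd13 side, the shared sites at 74239820 and 74265077 had Tbx5 scores of 21.1 and 14.7 and Pitx1 scores of 53.4 and 35.4. The others, at 73954474, 74201743, 74321011, 74514228, 74548491 and 74651285, had Tbx5 scores between 2.61 and 16.2 and Pitx1 scores between 3.83 and 17.4. That at 74548491 lay inside Lnpk and that at 74651285 was 16.9 kb from Hoxd13. In the cluster, the shared sites were at Hoxd11 (Pitx1 score 6.49), before Hoxd9 (27.3), inside Hoxd9 (65.2) and at a pair of positions inside the Hoxd3 record (11.54 and 9.54). Over all 29 pairs the median distance was 51 bp, beside 60 bp over the 4062 pairs of the lists.

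Several of the highest-scoring Pitx1 sites had no Tbx5 summit close by. Over the whole Pitx1 list, 76% of summits were more than 10 kb from one. The strongest of the locus, at 75252958, scored 581 and ranked 6 of 54941. It lay 488 kb from the cluster inside the long non-coding RNA gene 2600014E21Rik (75137655 to 75322407), and the nearest Tbx5 summit was 13.1 kb away with a score of 5.23. Pitx1 summits at 75183490 (score 161) and 75609466 (148) were 10.1 and 31.4 kb from a Tbx5 summit. On the Hoxd13 side, the highest Pitx1 scores were 119 at 73978265, inside the long non-coding RNA gene Gm31472, and 115 at 73952783. A Tbx5 summit lay 1.07 kb from the first of these and 1.69 kb from the other. The Pitx1 summit at 73999285, with a score of 71.9, was 16 kb from the nearest Tbx5 summit. In the cluster, the Pitx1 summit with a score of 114 was 4 kb from one.

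More than 10 kb from any Tbx5 summit lay 44 of the 83 Pitx1 summits on the Hoxd13 side, 5 of 41 in the cluster and 32 of 82 on the Hoxd1 side. Together these were 81 of 206, or 39.3%, beside 76% of the whole Pitx1 list. In the opposite direction, 15 Tbx5 summits were more than 1 kb from any Pitx1 summit, 3 on the Hoxd13 side, 0 in the cluster and 12 on the Hoxd1 side. They were 25.4% of the 59, beside 44.9% of the whole Tbx5 list. Isolated summits of either factor were thus a smaller share of the locus than of the lists. The highest of the 3 scored 51 and lay at 73977194, and the highest of the 12 scored 41.6. Summits were also denser in the locus than over the lists, 4.83 times for Pitx1 and 7.4 times for Tbx5. Distances to the nearest summit depend on such density. The Pitx1 list is 5.35 times as long as the Tbx5 list. The parts of density and list length in these numbers were not tested.

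The second Pitx1 list, a subset of the first deposited by the authors with no account of how it was made, was compared with the full list by zone. It held 22 of the 83 summits of the Hoxd13 side (26.5%, exact 95% interval 17.4 to 37.3), 11 of 41 in the cluster (26.8%, 14.2 to 42.9) and 36 of 82 on the Hoxd1 side (43.9%, 33 to 55.3). Over the whole list 32.4% were kept. The subset keeps high scores more often. With the kept share of each of 10 score classes applied to the members' scores, 29.1 summits of the Hoxd13 side, 12.9 of the cluster and 32.9 of the Hoxd1 side would have been kept. Of the 16 Pitx1 summits of the Hoxd1 side in the highest 10% of scores the second list held 16, of the 8 on the Hoxd13 side 7, and of the 4 in the cluster 4. Over the whole list it held 93.7% of the summits in this class, so these counts were near the background. Of the 18 Pitx1 summits in the stretch with Lnpk and Evx2 it held 1, with a score of 7.67.

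The other Hox clusters were measured in the same way, with values side by side and no test. The Hoxd cluster had 42.3 Pitx1 summits per 100 kb, beside 45.5 for Hoxa, 21.8 for Hoxb and 51 for Hoxc, so dense Pitx1 summits were found at each of the 4. Tbx5 had 6 summits in Hoxd, 13 in Hoxa, 7 in Hoxb and 5 in Hoxc, or 6.19, 12.3, 4.02 and 4.32 per 100 kb. On the side away from the group 13 gene, Hoxd had 37 Tbx5 summits, Hoxa 17, Hoxb 22 and Hoxc 9. On the group 13 side, Hoxd had 16, Hoxa 15, Hoxb 3 and Hoxc 5. For Pitx1, the group 13 side and the other side held 83 and 82 summits at Hoxd, 98 and 58 at Hoxa, 57 and 37 at Hoxb, and 53 and 51 at Hoxc.

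**Figure D5:**
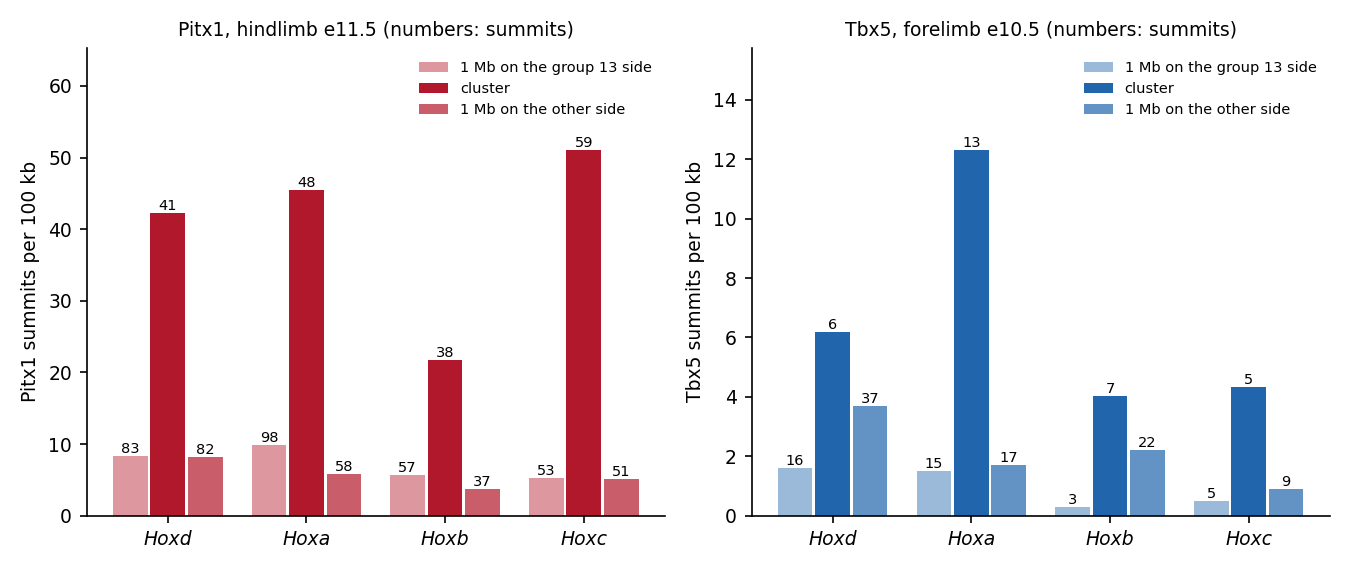
Pitx1 (left) and Tbx5 (right) summits per 100 kb in each Hox cluster and in 1 Mb on each side of it, with the number of summits above each bar. In Tbx5, the flank away from the group 13 gene held 37 summits at Hoxd, beside 17, 22 and 9 at Hoxa, Hoxb and Hoxc.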

How the data were processed

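ChIP-seq summits of 1 Pitx1 sample and 1 Tbx5 sample were used, and the remaining 16 of 18 samples of the series were not analysed here. The deposited files give a score per summit, taken here as the −log10 of the q-value that MACS2 writes. The lowest values were 1.31 and 1.42, just above the −log10 of 0.05. Per the submitters' processing notes, HOMER, MACS2 2.1.1.20160309, Bowtie2 2.2.6 and Bowtie 1.1.2 were among the tools. Their roles, the control library, depth and later filters are not stated there. The authors also deposited 17783 of the Pitx1 summits as a second list. Its further columns are unexplained and were not used.

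Genes and promoters came from RefSeq tables of GRCm38.p6, and all 9 Hoxd genes matched. Summits were counted by zone with Python 3.11.15, pandas 2.3.3 and scipy 1.17.1. List density is summits over the 2702 Mb between the first and last gene of each chromosome. Intervals are exact Clopper-Pearson 95% intervals. No test was made, since each factor has 1 sample. The counting functions were tested on simulated data. Single summits named are the 5 highest of each factor in each zone, shared sites and those nearest each Hoxd gene, with a few more chosen after their values were seen. Members and lists were chosen with earlier results of these data known.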

Additional observations from a re-analysis of the deposited data

How the results depend on the processing

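Counts followed the length of the list. With the second Pitx1 list the Hoxd13 side, cluster and Hoxd1 side held 22, 11 and 36 Pitx1 summits, with summits at or above the list's median score 46, 21 and 44, and with the Pitx1 list cut to the length of the Tbx5 list 17, 7 and 25. At or above its median score, Tbx5 had 10 summits on the Hoxd13 side, 2 in the cluster and 25 on the Hoxd1 side. With flanks of 500 kb the Hoxd13 and Hoxd1 sides held 53 and 39 Pitx1 summits, and the Hoxd1 side 17 Tbx5 summits. The Hoxd13 share of Pitx1 summits in the flanks was 51.1% (n = 90) at or above the list's median score. It was 37.9% (n = 58) in the second list and 40.5% (n = 42) in the cut list, below the interval of the full list. Whether these shares differ from an even split was not tested. Pitx1 density over that of its list was 5.22 on the Hoxd13 side with 500 kb flanks, and on the Hoxd1 side 5.47 with the second list and 6.58 with the cut list. The shared share of Tbx5 summits was 66.1% within 500 bp, 74.6% within 1000 bp, 25.4% with the second list and 22% with the cut list, beside 49.1%, 55.1%, 23.2% and 17.8% of the whole list in the same settings. Of 68 alternative values, 37 stayed within 1.5 times the count or within the 95% interval. Sharing on the Hoxd1 side was below that of the whole list at 200 bp (37.8% beside 39.5%) and above it at 100 bp (32.4% beside 28.8%) and at 250, 500 and 1000 bp. The 250 bp limit and a desert ending at Gm50595 were chosen after seeing the data. No paired analysis was possible because each group has 1 sample, which also leaves no replicate to omit. Depth is unknown, so a stretch without a summit is not shown to be unbound.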

Other observations

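The peak names carry running numbers, and some numbers are missing from the deposited lists. In the Hoxd locus 206 of 236 Pitx1 numbers (87.3%) and 59 of 63 Tbx5 numbers (93.7%) were present, beside 79.2% and 74% on chromosome 2 and 77.8% and 60.4% in all. The Pitx1 cluster summits took up 41 of 42 numbers. Scores repeat, so ranks have ties: the 206 Pitx1 summits had 65 different scores, and 15 summits had the score 3.83.

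Across the 29 shared pairs of the locus, the Tbx5 and Pitx1 scores had a Spearman correlation of 0.529, beside 0.128 over the 4062 pairs of the whole lists. It was 0.608 over the 10 pairs of the Hoxd13 side, -0.3 over the 5 of the cluster and 0.635 over the 14 of the Hoxd1 side. The pairs share both libraries and, in the locus, neighbouring sequence, so this is a description only.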
